A study of Mus musculus with 36 samples.

Results

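Aminoacyl-tRNA synthetases are the enzymes that join each amino acid to its transfer RNA. Their genes were followed here in mouse embryonic stem cells across 12 groups of libraries. Members were the protein-coding genes whose symbols follow the pattern of the family, namely a one-letter amino acid code followed by ars with or without a digit, with Eprs, Ears2, Farsa, Farsb, Fars2 and Pars2. This gave 37 genes of the 55335 in the count table, 21849 of which were protein-coding. A symbol ending in 2 marks the gene for a mitochondrial enzyme, and 17 genes were of this kind. The other 20 genes were cytosolic. All 37 passed the filter on low counts, so no member was left out of the tests. The rule reads gene symbols and no measured value, but the family was taken up with earlier results of these data known.

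A synthetase reads its transfer RNA and loads it with the matching amino acid, which the ribosome then places in the growing chain. Cells keep a cytosolic set of these enzymes for proteins made in the cytosol and a mitochondrial set for the few proteins that the mitochondrial genome encodes, and the genes of both sets lie in the nucleus. Gars and Kars each encode the glycine and lysine enzymes of both compartments, and Eprs encodes a single protein that charges glutamate and proline transfer RNAs. Farsa and Farsb encode the different subunits of the cytosolic phenylalanine enzyme. Many cytosolic synthetase genes are known targets of ATF4, a transcription factor made when cells sense amino acid shortage or other stress that phosphorylates the initiation factor eIF2alpha.

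Polyadenylated RNA was sequenced at days 0, 2, 4 and 6 from cells given DMSO (a common solvent for compounds), BPK25 (a code-named compound) or IAA (auxin, which brings about breakdown of degron-tagged proteins in cells engineered for it). Each of the 12 combinations had 3 libraries, 36 in all, with 6621288 to 16497799 counts each. All groups share the cell line name mESC and a medium with serum replacement and LIF, and feeder fibroblasts are described as typical for the cultures. By its title the series is about the NuRD complex, a chromatin remodeller, at sites bound by CTCF. Not stated in the labels are which protein carries a degron, whether the DMSO and BPK25 cells carry it too, the doses, what the days are counted from, whether the line is 1 clone, or whether the 3 libraries of a group came from separate cultures, so p-values measure the spread between these libraries only. The 10 embryonic stem cell markers summed to between 2860 and 2990 CPM (read counts scaled to a common library total) in the DMSO day 0 libraries, and none was at 0 in any group.

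Promoter sequence was available for 27 of the 37 genes, 13 cytosolic and 14 mitochondrial, in RefSeq windows of 300 bases (250 before and 50 after the transcript start, build GRCm38.p6). The windows were searched on both strands for TGATGNAA, the core of the element that ATF4 binds with C/EBP factors. Matches were found in 5 of the 13 cytosolic windows (38.5%), in 0 of the 14 mitochondrial windows, and in 3.97% of all 32851 windows of that length. The genes that carry them are followed below in the comparisons of BPK25 and of IAA with DMSO. Sites of matches in these 5 genes are shown with the matching letters, or their reverse complement, in capitals.
Aars, chr8:111033840-111033858, + strand, 9 bases after the start: agcgggtcactTTTCATCA
Gars, chr6:55037960-55037989, + strand, 30 bases before the start: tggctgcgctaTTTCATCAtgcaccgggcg
Iars, chr13:49682126-49682144, + strand, 7 bases after the start: cactgtcagtaTTGCATCA
Tars, chr15:11399659-11399684, - strand, 15 bases before the start: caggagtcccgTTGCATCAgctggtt
Yars, chr4:129189895-129189913, + strand, 3 bases after the start: acgagctcagcTGATGCAA
The match lies on the strand of the gene in Yars and on the opposite strand in the other sites shown. All 5 genes belong to a list of 12 cytosolic synthetase genes often reported as ATF4-bound (Aars, Cars, Eprs, Gars, Iars, Lars, Mars, Nars, Sars, Tars, Wars and Yars), 8 of which had a window. A second motif, the E-box CACGTG, can share bases with the first, and its positions are not given here. It was found in the windows of Aars, Farsb, Iars and Tars among the 13 cytosolic genes, in Ears2 alone among the 14 mitochondrial genes, and in 7.15% of all windows. A match describes letters in a window and is not evidence of binding.

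Cytosolic synthetase transcripts were far more abundant than mitochondrial ones. In DMSO at day 0 the median level over the 20 cytosolic genes was 262 CPM, from 64.2 for Farsb to 947 for Eprs, and that over the 17 mitochondrial genes was 28.5 CPM, from 7.49 for Wars2 to 187 for Lars2. Per kilobase of exon the order of the classes was complete, with all 20 cytosolic genes above all 17 mitochondrial genes. The highest cytosolic level per kilobase was that of Gars, the glycine enzyme, at 140 CPM per kb, and the lowest was that of Qars, the glutamine enzyme, at 22.9 CPM per kb. Lars2, the mitochondrial leucine enzyme, came next at 16.9 CPM per kb, and Mars2, the mitochondrial methionine enzyme, was lowest at 1.00 CPM per kb. Exon lengths are those of all annotated exons of a gene merged, so levels per kilobase understate genes with long rare exons. The lower level sets the precision. The smallest count of a mitochondrial gene in any library was 25 (Pars2) and that of a cytosolic gene 252 (Farsb).

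Added over its genes, the cytosolic class took 6920, 6866 and 7015 CPM in the 3 DMSO day 0 libraries. The mitochondrial class took 700.4, 708 and 680.4 CPM there, and 518, 507 and 503 CPM without Lars2, whose level is treated separately below. The ratio of the classes per kilobase was 11.4 ± 0.378 (SD, n = 3), and 13.3 ± 0.43 without Lars2. In the DMSO course the cytosolic sum was 6785 ± 112 CPM at day 2, 5065 ± 103 at day 4 and 4429 ± 40 at day 6, while the mitochondrial sum without Lars2 was 509 ± 2.83, 440 ± 3.58 and 425 ± 2.89 CPM. The libraries of day 6 lay below those of day 0 in both classes with no overlap. The cytosolic sum at day 6 was the smaller fraction of its day 0 value, and the ratio without Lars2 came to 10.9 ± 0.144 per kb.

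**Figure D1:**
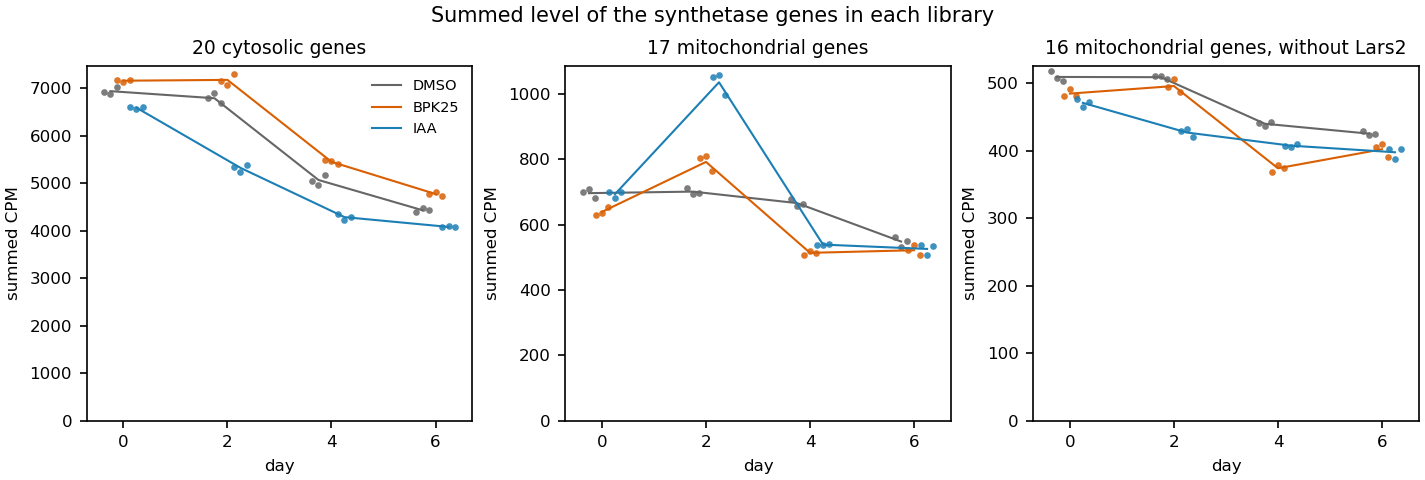
Summed CPM of the cytosolic genes, the mitochondrial genes and the mitochondrial genes without Lars2 (y axes, each starting at 0) in each of the 36 libraries by day (x axis) and treatment. The cytosolic sum lies near 6934 CPM in DMSO at day 0 and near 4429 CPM at day 6, and the high mitochondrial sum of IAA at day 2 is absent from the panel without Lars2.

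The DMSO course came first, since every other comparison is read against it. Cytosolic synthetase transcripts fell from day 0 to day 6, and the fall was broad: 19 of 20 genes were lower at day 6 and 0 higher, against 29.5% of all 17394 tested genes lower, 33.2% higher and 62.7% called in either direction. Aars, the alanine enzyme, had 877, 854 and 855 CPM at day 0 and 406, 426 and 406 CPM at day 6 (log2 fold change -1.06 ± 0.03, adjusted p = 2.34e-30, edgeR quasi-likelihood test with Benjamini-Hochberg adjustment over all genes, as for every adjusted p here, with ± giving the SE). Every day 6 library held less than every day 0 library. Cars, the cysteine enzyme, had 203, 186 and 198 CPM at day 0 and 96.01, 100.5 and 91.5 CPM at day 6 (log2 fold change -1.03 ± 0.05, adjusted p = 1.67e-23). Vars, the valine enzyme, had 239.5, 243 and 241 CPM and 123, 119 and 118 CPM (log2 fold change -1.01 ± 0.04, adjusted p = 3.44e-26). Both changes were near 1 log2 unit and far beyond the spread of the libraries. Yars, the tyrosine enzyme, fell by a similar amount, from 173, 176 and 175 CPM to 91.7, 87.7 and 93.3 CPM (log2 fold change -0.94 ± 0.04, adjusted p = 8.27e-24). The genes serving both compartments fell too, Gars from 435, 423 and 450.1 CPM to 244, 247 and 250.1 CPM (log2 fold change -0.82 ± 0.04, adjusted p = 3.8e-23) and Kars from 525, 499.8 and 555 CPM to 351, 393 and 367 CPM (log2 fold change -0.51 ± 0.05, adjusted p = 6.72e-14). Wars, the tryptophan enzyme, was the 1 cytosolic gene with no call (log2 fold change 0.09 ± 0.05, adjusted p = 0.081). For the 0 genes higher in either class, edgeR also had 0 at an unadjusted p under 0.05 and DESeq2 called 0, and 1 mitochondrial gene was called without replicate 3 of DMSO day 0. The median log2 fold change was -0.62 over the cytosolic genes, -0.29 over the mitochondrial genes and 0.03 over all genes tested.

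Many mitochondrial synthetase transcripts fell over the same course, with 11 of 17 lower and 0 higher at day 6. They included Sars2, Lars2, Tars2, Yars2, Mars2, Aars2, Pars2, Rars2, Fars2 and Nars2. Sars2, the mitochondrial serine enzyme, had 31.2, 29.01 and 27.8 CPM at day 0 and 18.8, 20.4 and 17.03 CPM at day 6 (log2 fold change -0.65 ± 0.09, adjusted p = 9.84e-09). Tars2, which charges mitochondrial threonine transfer RNA, had 56.9, 59.9 and 60.5 CPM and 40.5, 39.9 and 36.9 CPM (log2 fold change -0.59 ± 0.07, adjusted p = 4.84e-11). In both genes the groups did not overlap. The other 6 were not called, and their adjusted p-values ranged down to 0.0797. The calls of Fars2, Nars2 and Pars2 at day 6 each depended on single libraries. Fars2 was not called without replicate 1 or 3 of DMSO day 0 or replicate 1 of DMSO day 6 (adjusted p up to 0.202). Nars2 was not called without replicate 1 or 2 of DMSO day 0 or replicate 2 of DMSO day 6 (adjusted p up to 0.299), and Pars2 not without replicate 1 of DMSO day 0 or replicate 3 of DMSO day 6 (adjusted p up to 0.211). Both Fars2 and Nars2 also lost the call with no filter on low counts, and Nars2 with DESeq2. With an SE near 0.09 for a typical mitochondrial gene and 0.04 for a typical cytosolic gene, a change of the same size is called less readily in the mitochondrial class.

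The fall was in place by day 4 and barely visible at day 2. At day 4, 17 of 20 cytosolic genes were lower and 0 higher, with the exceptions Farsa, Hars and Wars, and 8 of 17 mitochondrial genes were lower, against 24.4% of all genes lower, 26.0% higher and 50.3% called in either direction. Cars (-0.91), Vars (-0.83), Yars (-0.79) and Farsb (-0.77) had the lowest log2 fold changes, with adjusted p-values of 8.96e-21, 3.62e-22, 3.11e-20 and 3.65e-13. The mitochondrial genes lower at day 4 included Yars2, Pars2, Sars2, Tars2, Aars2, Cars2 and Rars2. That count was 5 without DMSO day 0 replicate 1. Lars2 alone was higher at day 4 (log2 fold change 0.27 ± 0.06, adjusted p = 0.000146). Gars (-0.50) and Kars (-0.22) were lower at day 4 and not called at day 2 (adjusted p = 0.382 and 0.425). At day 2 the only call was Rars, the arginine enzyme (log2 fold change -0.15 ± 0.04, adjusted p = 0.0179), against 5.44% of all genes called, 1.59% higher and 3.85% lower, and it was lost without replicate 3 of DMSO day 0 or replicate 1 or 3 of DMSO day 2 (adjusted p up to 0.201). DESeq2 also called 1 cytosolic gene at day 2, and at an unadjusted p under 0.05 edgeR had 3 cytosolic genes lower and 1 higher, with 1 mitochondrial gene in each direction.

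Cell markers moved along this course. All 10 embryonic stem cell markers were lower in DMSO at day 6 than at day 0, with a summed level of 771 to 783 CPM against 2860 to 2990 CPM. All 9 endoderm markers were higher, at 4140 to 4160 against 1700 to 1770 CPM, and 11 of 14 tested fibroblast feeder markers were higher, at 207 to 218 against 62.5 to 68.5 CPM. Neural markers summed to 129 to 133 CPM at day 6 against 63.0 to 67.9 at day 0, and mesoderm and muscle markers to 67.1 to 73.9 against 6.55 to 8.69 CPM, with Mixl1 at 0 in the day 0 libraries. In bulk RNA, fewer cells of a type and less RNA per cell cannot be told apart. The part of these shifts in the synthetase levels was not tested.

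BPK25 had a mixed pattern on the synthetase genes, with the most calls at day 4. In total 20 of the 37 genes were called there, near the share over all genes given next. At that day 7 cytosolic genes were higher than in DMSO and 6 lower, while 0 mitochondrial genes were higher and 7 lower, against 53.0% of all genes called, 26.2% higher and 26.8% lower. The 7 higher genes were Aars, Cars, Yars, Iars, Gars, Nars and Wars, and all 7 are on the list of 12 genes often reported as ATF4-bound. The 6 lower genes were Vars, Hars, Dars, Farsa, Mars and Qars, of which Mars alone is on that list. The median log2 fold change was 0.13 over the 12 listed genes and -0.21 over the 8 other cytosolic genes, -0.21 over the mitochondrial genes and -0.01 over all genes tested. By promoter sequence, 4 of the 5 cytosolic genes with a TGATGNAA match were higher and 0 lower, and of the 8 cytosolic windows without one, 0 genes were higher and 4 lower. Cars, Nars, Wars, Vars and Hars, also called at that day, had no window. Tars carries a match and was not called (log2 fold change -0.03 ± 0.04, adjusted p = 0.588). With BPK25 at days 0, 2 and 6, the numbers higher of the 5 genes with a match were 1, 4 and 1, with 0 lower. For the 8 without one they were 1, 1 and 2, with 1, 2 and 0 lower. Among all genes 3.32%, 6.40% and 4.01% were higher at those days and 4.58%, 7.12% and 3.08% lower.

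Aars had 923, 929 and 933 CPM with BPK25 at day 4 and 564, 539 and 549.7 CPM with DMSO (log2 fold change 0.75 ± 0.03, adjusted p = 3.78e-24). Cars had 165, 168 and 154 CPM against 102, 108 and 101 CPM (log2 fold change 0.64 ± 0.05, adjusted p = 1.65e-15). The BPK25 libraries lay above all DMSO libraries of that day in both genes. Aars at day 4 with BPK25 also lay above the DMSO day 0 libraries, and it was 489, 484 and 494 CPM with BPK25 at day 6. Vars went the other way, with 91.1, 94.2 and 97.7 CPM against 136, 135 and 136 CPM (log2 fold change -0.53 ± 0.04, adjusted p = 2.82e-14). Hars, the histidine enzyme, had 133, 126 and 134 CPM against 179.8, 189 and 196 CPM (log2 fold change -0.52 ± 0.04, adjusted p = 1.48e-14). The groups did not overlap in either gene, and BPK25 at day 4 held the lowest Vars level of the 12 groups. Of the genes that serve both compartments, Gars was higher (log2 fold change 0.17 ± 0.04, adjusted p = 0.000369) and Kars was not called (log2 fold change 0.07 ± 0.04, adjusted p = 0.181). The smallest call, Wars (log2 fold change 0.11 ± 0.05, adjusted p = 0.0401), was lost without replicate 2 or 3 of BPK25 day 4 or replicate 1 or 3 of DMSO day 4 (adjusted p up to 0.211). It was also lost with DESeq2, with no filter on low counts and with only the libraries compared.

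Among the mitochondrial genes, Lars2 had 139, 140.5 and 139.8 CPM with BPK25 at day 4 and 238, 221 and 220 CPM with DMSO (log2 fold change -0.70 ± 0.06, adjusted p = 4.05e-14). Pars2, the proline enzyme, had 2.65, 3.29 and 4.72 CPM against 5.77, 4.48 and 5.29 CPM (log2 fold change -0.54 ± 0.21, adjusted p = 0.0301). Lars2 was clearly separated between the groups, whereas the groups overlapped in Pars2, which rests on few counts, and its call was lost without replicate 1 or 2 of BPK25 day 4 or replicate 1 or 3 of DMSO day 4 (adjusted p up to 0.251). Rars2 (-0.36), Iars2 (-0.33), Fars2 (-0.30) and Nars2 (-0.22) were also lower. Nars2 was not called with DESeq2, with no filter on low counts or with only the libraries compared. Without BPK25 day 4 replicate 1, 4 mitochondrial genes were lower in place of 7, the calls of Fars2, Nars2 and Pars2 being lost, and without Lars2 the count was 6 of 16. For the 0 higher, edgeR had 1 at an unadjusted p under 0.05, DESeq2 called 0, and 1 was called without replicate 2 of BPK25 day 4. The cytosolic to mitochondrial ratio per kilobase, Lars2 left out, was 14.3 ± 0.348 with BPK25 and 11.8 ± 0.0971 with DMSO at day 4, with no overlap of libraries. BPK25 at day 4 was the lowest of all groups for 6 of the 17 mitochondrial genes.

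**Figure D2:**
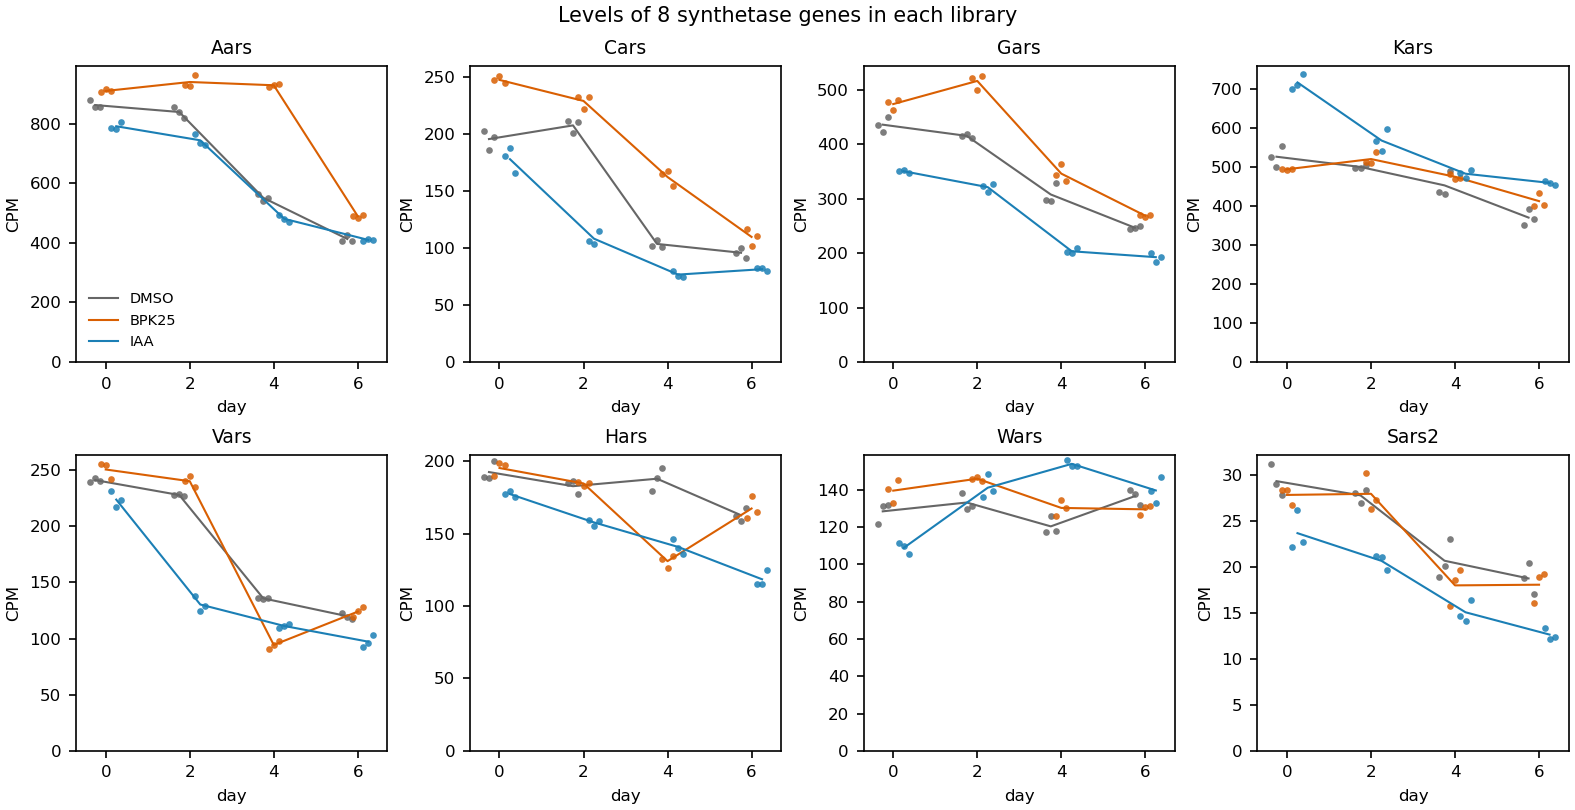
CPM (y axes) of Aars, Cars, Gars, Kars, Vars, Hars, Wars and Sars2 by day (x axes). Points are libraries and lines join the means of 3 libraries for each treatment. Aars lies higher with BPK25 than with DMSO at day 4 while Vars and Hars lie lower, and Kars is highest with IAA at day 0.

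At the other days fewer synthetase genes, and fewer of all genes, were called with BPK25. At day 0, 3 cytosolic genes were higher, 1 cytosolic gene lower and 2 mitochondrial genes lower, against 7.90% of all genes called, 3.32% higher and 4.58% lower. Cars had 247, 251 and 245 CPM with BPK25 and 203, 186 and 198 CPM with DMSO (log2 fold change 0.34 ± 0.05, adjusted p = 2.58e-06), and Sars, the cytosolic serine enzyme, 431, 448 and 433 CPM against 374, 376 and 386 CPM (log2 fold change 0.21 ± 0.04, adjusted p = 0.000757). Dars, the cytosolic aspartate enzyme, was the lower gene, with 238, 233 and 222 CPM against 272, 266 and 279.7 CPM (log2 fold change -0.24 ± 0.04, adjusted p = 4.47e-05). All 3 genes were separated between the groups. Gars was higher by a small amount (log2 fold change 0.12 ± 0.04, adjusted p = 0.0492), a call lost without replicate 1 or 3 of BPK25 day 0 or replicate 1 or 2 of DMSO day 0 (adjusted p up to 0.218). Kars was not called (log2 fold change -0.09 ± 0.04, adjusted p = 0.245). The mitochondrial genes that fell were Lars2 (log2 fold change -0.28 ± 0.06, adjusted p = 0.00186) and Rars2 (log2 fold change -0.27 ± 0.07, adjusted p = 0.00915), the second not called without replicate 1 of DMSO day 0 (adjusted p = 0.145). With no filter on low counts the calls of Gars and Rars2 were lost.

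At day 2, 8 cytosolic genes were higher with BPK25 and 2 lower, and 1 mitochondrial gene moved each way, against 13.5% of all genes called, 6.40% higher and 7.12% lower. The 8 were Gars, Sars, Nars, Yars, Aars, Tars, Cars and Wars, all on the list of 12, as is Eprs, which was lower. Gars had 523, 500.3 and 526 CPM against 416, 418 and 412 CPM (log2 fold change 0.31 ± 0.04, adjusted p = 1.01e-07), and Sars 425, 421 and 454 CPM against 363, 372 and 395 CPM (log2 fold change 0.20 ± 0.04, adjusted p = 0.00054). These 2 genes led the higher group and their libraries did not overlap between the treatments. Dars was again lower (log2 fold change -0.24 ± 0.04, adjusted p = 7.1e-06), as was Eprs (log2 fold change -0.15 ± 0.04, adjusted p = 0.00319), and Nars was higher (log2 fold change 0.17 ± 0.05, adjusted p = 0.0101) except without replicate 3 of BPK25 day 2 or replicate 3 of DMSO day 2 (adjusted p up to 0.189). The count of 8 came to 5 without replicate 1 or 3 of BPK25 day 2 or replicate 3 of DMSO day 2. Kars was not called (log2 fold change 0.06 ± 0.04, adjusted p = 0.462). Lars2 rose with BPK25 at day 2 (log2 fold change 0.62 ± 0.06, adjusted p = 5.86e-11), opposite to days 0 and 4. Rars2 was lower (log2 fold change -0.22 ± 0.07, adjusted p = 0.0191), a call lost without replicate 1 or 2 of BPK25 day 2 or replicate 1 or 2 of DMSO day 2 (adjusted p up to 0.108). The calls of Rars2 and Wars were lost with no filter on low counts, and those of Cars and Wars with only the libraries compared.

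At day 6, 6 cytosolic genes were higher with BPK25 and 0 lower, against 7.09% of all genes called, 4.01% higher and 3.08% lower. Lars, the cytosolic leucine enzyme, had 237, 228 and 223 CPM against 188, 188 and 189 CPM (log2 fold change 0.29 ± 0.04, adjusted p = 4.2e-06), and Aars 489, 484 and 494 CPM against 406, 426 and 406 CPM (log2 fold change 0.25 ± 0.03, adjusted p = 4.2e-06). Both were separated between the groups. Nars was higher too (log2 fold change 0.20 ± 0.05, adjusted p = 0.0046), with Cars (log2 fold change 0.20 ± 0.05, adjusted p = 0.00937), Kars (log2 fold change 0.16 ± 0.04, adjusted p = 0.0241) and Sars (0.13). Of these 6 genes only Kars is not on the ATF4 list. Cars was not called without replicate 1 of BPK25 day 6 or replicate 1 or 3 of DMSO day 6 (adjusted p up to 0.119), Kars not without replicate 2 of BPK25 day 6 or replicate 1 or 3 of DMSO day 6 (adjusted p up to 0.221). Kars was also not called with no filter on low counts or with only the libraries compared. Sars was not called without replicate 1 or 2 or 3 of BPK25 day 6 or replicate 1 or 3 of DMSO day 6 (adjusted p up to 0.242), nor with no filter on low counts (adjusted p = 0.201) or with only the libraries compared (adjusted p = 0.0958). The count of 6 came to 3 without replicate 1 or 3 of DMSO day 6, and to 10 with DESeq2, which added Gars, Iars, Mars and Tars. Gars had a log2 fold change of 0.12 with an adjusted p of 0.0531 in edgeR. Iars2, the mitochondrial isoleucine enzyme, was the 1 lower gene of its class (log2 fold change -0.20 ± 0.05, adjusted p = 0.00347), and without replicate 2 of BPK25 day 6 Cars2 was called lower as well. For the 0 cytosolic genes lower, edgeR had 2 at an unadjusted p under 0.05 and DESeq2 called 0, while 1 was called without replicate 2 of BPK25 day 6 or replicate 3 of DMSO day 6. For the 0 mitochondrial genes higher, both counts were 0.

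Markers of several cell types differed between BPK25 and DMSO. At day 4, 6 of 9 endoderm markers were lower and 2 higher, summing to 1170 to 1180 CPM against 2050 to 2080, and 4 of 7 tested mesoderm and muscle markers were higher and 1 lower, summing to 111 to 125 against 22.3 to 26.8 CPM. Of the embryonic stem cell markers 5 of 10 were lower and 2 higher (1100 to 1130 against 1230 to 1320 CPM), and of 8 neural markers 5 were lower and 1 higher (76.0 to 80.9 against 90.8 to 94.1 CPM). Feeder markers summed to 128 to 139 against 125 to 133 CPM, with 4 higher and 5 lower of 14, and Dcn, Lum and S100a4 were at 0 in the BPK25 libraries of that day. At day 6, 5 of 14 feeder markers were higher with BPK25 and 0 lower (248 to 263 against 207 to 218 CPM), and 4 of 7 mesoderm and muscle markers were higher and 0 lower (96.6 to 99.4 against 67.1 to 73.9 CPM). At the same day 3 of 9 endoderm markers were lower and 1 higher (3750 to 3780 against 4140 to 4160 CPM), and 1 stem cell marker and 1 neural marker were higher. At days 0 and 2, 2 endoderm markers were lower each time, 1 stem cell marker moved each way, and 2 feeder markers were higher at day 2. The part of these markers in the synthetase changes was not tested.

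With IAA most cytosolic synthetase transcripts were lower than with DMSO at every day, from day 0 on. There were 14 cytosolic genes lower and 3 higher at day 0, 16 and 2 at day 2, 15 and 1 at day 4, and 13 and 1 at day 6. The shares of all genes called were 44.5%, 55.4%, 51.9% and 60.6%, with 23.2%, 27.9%, 25.9% and 30.0% of all genes lower and 21.3%, 27.5%, 25.9% and 30.6% higher. The median log2 fold changes over the cytosolic genes were -0.14, -0.38, -0.26 and -0.18, while those over all genes lay between -0.03 and 0.00. These comparisons share their DMSO libraries with those of BPK25. Nars, Gars, Cars, Yars, Iars, Mars, Dars, Hars and Vars were lower at all 4 days. Of these, the call of Cars at day 0 was lost without replicate 1 or 3 of DMSO day 0 or replicate 3 of IAA day 0 (adjusted p up to 0.191), that of Hars without replicate 3 of DMSO day 0 or replicate 1 or 3 of IAA day 0 (adjusted p up to 0.126), that of Vars without replicate 2 or 3 of DMSO day 0 or replicate 2 or 3 of IAA day 0 (adjusted p up to 0.138), and that of Iars at day 6 without replicate 1 or 3 of DMSO day 6 or replicate 3 of IAA day 6 (adjusted p up to 0.163). The call of Iars at day 6 was also lost with DESeq2 and with RLE size factors, and that of Vars at day 0 with only the libraries compared. At day 0 the count of 14 was 8 when low counts were not filtered, since the calls of Aars, Cars, Dars, Farsb, Hars and Vars, all between -0.18 and -0.11, were lost.

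At day 0 the lowest log2 fold changes were those of Mars, the cytosolic methionine enzyme, and Sars. Mars had 188, 179 and 173 CPM with IAA and 243, 253 and 261 CPM with DMSO (log2 fold change -0.48 ± 0.04, adjusted p = 1.34e-13), and Sars 306, 284 and 287 CPM against 374, 376 and 386 CPM (log2 fold change -0.37 ± 0.04, adjusted p = 5.08e-10). Nars, the asparagine enzyme, had 390.4, 393 and 384 CPM against 499.9, 479 and 512 CPM (log2 fold change -0.35 ± 0.05, adjusted p = 2.01e-08). None of these overlapped between the groups. Kars went the other way, with 701, 711 and 739 CPM against 525, 499.8 and 555 CPM (log2 fold change 0.45 ± 0.04, adjusted p = 9.66e-12), and so did Rars (0.33) and Farsa (0.23). Gars, the other gene that serves both compartments, was lower (log2 fold change -0.31 ± 0.04, adjusted p = 7.58e-09). IAA at day 0 held the highest Kars level of the 12 groups, 717 CPM on average, and the lowest Wars level, 109 CPM.

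At day 2, Cars had 106, 104 and 115 CPM with IAA and 212, 201 and 211 CPM with DMSO (log2 fold change -0.94 ± 0.05, adjusted p = 6.86e-22). Nars had 264, 265 and 281 CPM against 477, 499 and 459.8 CPM (log2 fold change -0.82 ± 0.05, adjusted p = 2.58e-20), and Vars 138, 124 and 129 CPM against 228, 228 and 227 CPM (log2 fold change -0.81 ± 0.04, adjusted p = 3.9e-22). No cytosolic gene was lower by more in any comparison of IAA with DMSO. Mars was lower as well (log2 fold change -0.62 ± 0.04, adjusted p = 4.46e-18), and Gars too (log2 fold change -0.37 ± 0.04, adjusted p = 3.84e-11), whereas Kars stayed higher (log2 fold change 0.18 ± 0.04, adjusted p = 0.000467). Farsa was higher too (0.13), a call lost without replicate 2 or 3 of DMSO day 2 or replicate 1 or 3 of IAA day 2 (adjusted p up to 0.345). It was also lost with DESeq2 and with only the libraries compared. Over the 12 ATF4-list genes 11 were lower and 0 higher, with a median of -0.52, and over the 8 others 5 were lower and 2 higher, with a median of -0.18. The listed gene without a call was Wars (log2 fold change 0.09 ± 0.05, adjusted p = 0.105). By promoter sequence, the day 2 medians were -0.39 over the 5 genes with a TGATGNAA match and -0.40 over the 8 without. At days 0, 2, 4 and 6, 4, 5, 5 and 4 of the 5 were lower and 0 higher. Of the 8, the numbers lower were 4, 6, 5 and 4 and the numbers higher 2, 2, 0 and 1. Among all genes 23.2%, 27.9%, 25.9% and 30.0% were lower.

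At day 4, Gars had 201, 199.5 and 209.6 CPM with IAA against 298, 296 and 329 CPM with DMSO (log2 fold change -0.59 ± 0.04, adjusted p = 2.66e-17), and Sars 209, 205 and 210.1 CPM against 280.1, 305 and 296 CPM (log2 fold change -0.50 ± 0.04, adjusted p = 5.46e-14). Nars (log2 fold change -0.44 ± 0.05, adjusted p = 9.66e-11) and Cars (log2 fold change -0.44 ± 0.05, adjusted p = 1.27e-09) came next. Wars was the 1 gene higher, with 156, 153 and 153 CPM against 118, 126 and 118 CPM, an increase of 0.35 on the log2 scale. Kars was not called at this day (log2 fold change 0.09 ± 0.04, adjusted p = 0.071). At day 6, Farsb had 33.7, 33.7 and 30.6 CPM against 45.9, 45.96 and 43.99 CPM (log2 fold change -0.47 ± 0.07, adjusted p = 1.21e-07), and Hars 115, 115 and 125 CPM against 162, 159 and 168 CPM (log2 fold change -0.46 ± 0.04, adjusted p = 5.83e-13). Nars was lower once more (log2 fold change -0.41 ± 0.05, adjusted p = 4.72e-10), and Gars likewise (log2 fold change -0.36 ± 0.04, adjusted p = 3.41e-10), and Kars was the 1 higher gene (log2 fold change 0.31 ± 0.04, adjusted p = 5.22e-08). With the DMSO levels also lower at late days, IAA at day 6 was the lowest of the 12 groups for 10 of the 20 cytosolic genes and IAA at day 4 for another 4. Aars, lower at days 0, 2 and 4, was not called at day 6 (log2 fold change -0.01 ± 0.04, adjusted p = 0.81).

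Mitochondrial genes moved in both directions with IAA. At days 0, 2, 4 and 6 the numbers lower were 6, 12, 5 and 7 of 17 and the numbers higher 4, 2, 1 and 3. Of all genes, 23.2%, 27.9%, 25.9% and 30.0% were lower and 21.3%, 27.5%, 25.9% and 30.6% higher, so the number lower at day 4 is near the share over all genes. The numbers higher are near that share at day 0 and below it at days 2, 4 and 6. Fars2, the phenylalanine enzyme, Sars2 and Iars2 were lower at all 4 days. Fars2 had 8.53, 11.02 and 12.01 CPM with IAA at day 4 against 16.6, 15.4 and 16.01 CPM with DMSO (log2 fold change -0.59 ± 0.11, adjusted p = 1.6e-05), and the difference was -0.54 at day 0 and -0.55 at day 6. Yars2 was lower at day 0 (log2 fold change -0.53 ± 0.12, adjusted p = 0.000362) and Aars2 at day 2 (log2 fold change -0.53 ± 0.07, adjusted p = 3.18e-08). Cars2, the cysteine enzyme, was higher at day 0, with 17.1, 16.7 and 18.3 CPM against 14.6, 11.9 and 11.2 CPM (log2 fold change 0.46 ± 0.12, adjusted p = 0.00174), and lower at day 6, with 8.37, 5.68 and 6.92 CPM against 10.03, 10.1 and 11.96 CPM (log2 fold change -0.58 ± 0.13, adjusted p = 0.000244). The sign of its change thus turned within the course, at low levels in all groups. Sars2 was lower at day 4 (log2 fold change -0.43 ± 0.09, adjusted p = 0.00013) and at day 6 (log2 fold change -0.56 ± 0.10, adjusted p = 3.78e-06). Yars2 at day 2 had 10.2, 12.2 and 14.2 CPM against 16.2, 17.9 and 17.5 CPM (log2 fold change -0.48 ± 0.12, adjusted p = 0.000575). The higher counts were unstable. The 4 higher genes of day 0 came to 2 with DESeq2, and to 2 without replicate 2 or 3 of DMSO day 0 or replicate 1 or 3 of IAA day 0. The 2 of day 2 came to 1 without replicate 1 or 2 of DMSO day 2 or replicate 2 of IAA day 2, and the 1 of day 4 to 0 without replicate 2 of DMSO day 4 or replicate 1 or 3 of IAA day 4. The medians over the 16 genes without Lars2 were -0.15, -0.29, -0.02 and -0.01 at the 4 days.

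**Figure D3:**
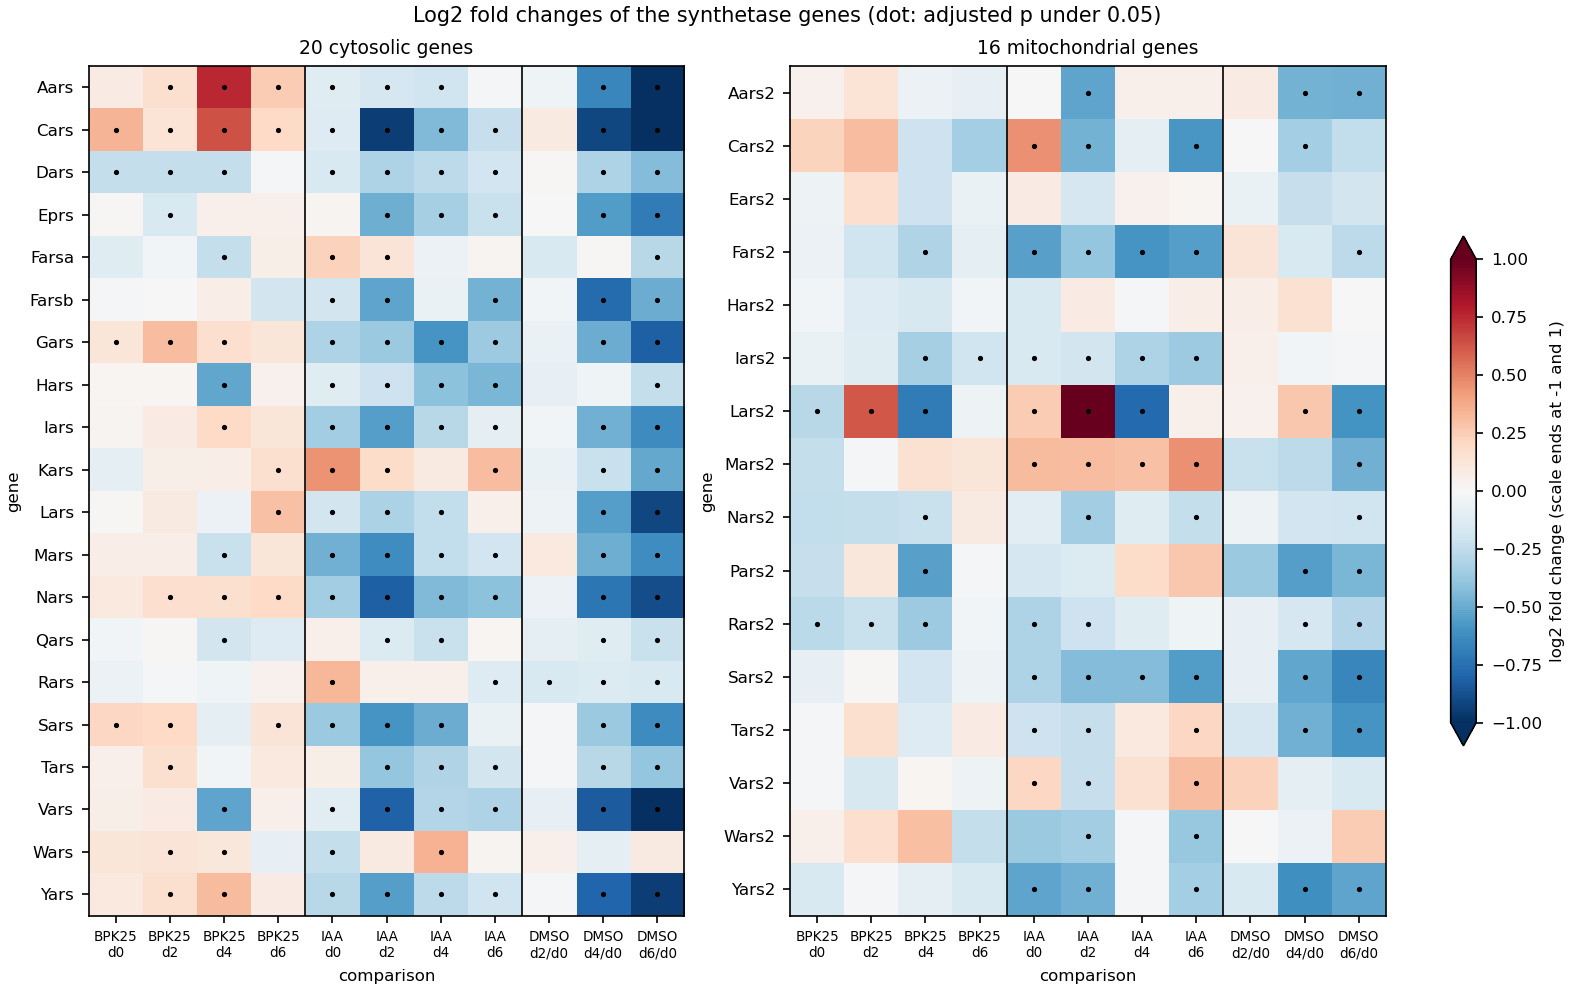
Log2 fold changes of the 20 cytosolic genes and 16 of the 17 mitochondrial genes (rows) in BPK25 against DMSO and IAA against DMSO at days 0, 2, 4 and 6 and in DMSO at days 2, 4 and 6 against day 0 (columns). Red is higher, blue is lower, colours end at -1 and 1, and a dot marks an adjusted p under 0.05. The IAA and late DMSO columns are blue for most cytosolic genes, and the BPK25 day 4 column holds both colours.

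Embryonic stem cell markers moved with IAA in opposite directions along the course. At day 0, 9 of 10 were higher than in DMSO and 0 lower (4060 to 4110 against 2860 to 2990 CPM). At day 2, 9 of 10 were lower and 0 higher (1590 to 1620 against 2740 to 2750 CPM), with 7 lower at day 4 (862 to 863 against 1230 to 1320 CPM) and 6 lower and 1 higher at day 6 (657 to 686 against 771 to 783 CPM). The cytosolic genes were mostly lower at day 0 and at day 2 alike. At day 0, 8 of 9 endoderm markers were lower (1120 to 1130 against 1700 to 1770 CPM), and at day 4, 6 were higher and 1 lower (3540 to 3560 against 2050 to 2080 CPM). Mesoderm and muscle markers were higher at day 4 for 5 of 7 tested (174 to 181 against 22.3 to 26.8 CPM). Neural markers summed to 129 to 132 CPM with IAA at day 4 against 90.8 to 94.1, with 5 of 8 higher and 2 lower. Feeder markers summed to 365 to 367 CPM with IAA at day 6 against 207 to 218, with 7 of 14 higher and 5 lower and S100a4 at 0, and Dcn, Lum, Fap and S100a4 were at 0 with IAA at day 2. The part of these markers in the synthetase changes was not tested.

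Set directly against IAA on the same day, most cytosolic genes were higher with BPK25. There were 13 higher and 3 lower at day 0, 15 and 2 at day 2, 10 and 4 at day 4, and 16 and 3 at day 6. Of all genes, 47.9%, 57.5%, 54.3% and 56.6% were called, with 24.8%, 29.2%, 27.2% and 27.7% of all genes higher and 23.1%, 28.4%, 27.1% and 28.8% lower. On the ATF4 list 10, 11, 10 and 11 of the 12 genes were higher and 0, 0, 1 and 1 lower, Wars being the lower gene at days 4 and 6. The day 6 call of Wars was lost without replicate 1 or 2 or 3 of BPK25 day 6 or replicate 1 or 3 of IAA day 6 (adjusted p up to 0.189), with no filter on low counts (adjusted p = 0.231) and with only the libraries compared (adjusted p = 0.109), which leaves 0 lower on the list. Over the 8 other cytosolic genes 3, 4, 0 and 5 were higher and 3, 2, 3 and 2 lower. Cars had 165, 168 and 154 CPM with BPK25 at day 4 and 79.99, 75.5 and 75.04 CPM with IAA (log2 fold change 1.08 ± 0.05, adjusted p = 9.07e-24). Aars had 923, 929 and 933 CPM against 493, 479 and 469.7 CPM (log2 fold change 0.95 ± 0.03, adjusted p = 2.51e-28), and Gars 343, 363 and 332 CPM against 201, 199.5 and 209.6 CPM (log2 fold change 0.76 ± 0.04, adjusted p = 1.55e-21). The libraries of the 2 treatments did not overlap in these genes. At day 2 the largest differences were in Cars (log2 fold change 1.08 ± 0.05, adjusted p = 1.01e-24), Nars (log2 fold change 0.99 ± 0.05, adjusted p = 1.17e-23) and Vars (log2 fold change 0.88 ± 0.04, adjusted p = 4.59e-24). At day 0 they were in Sars (log2 fold change 0.58 ± 0.04, adjusted p = 2.2e-16) and Mars (log2 fold change 0.56 ± 0.04, adjusted p = 4.12e-16), and at day 6 in Nars (log2 fold change 0.61 ± 0.05, adjusted p = 3.27e-15) and Hars (log2 fold change 0.50 ± 0.04, adjusted p = 9.25e-14). All of these genes were higher with BPK25. Gars was higher with BPK25 at every day, by 0.43, 0.68, 0.76 and 0.48 on the log2 scale. Kars was lower with BPK25 at day 0 (log2 fold change -0.54 ± 0.04, adjusted p = 1.86e-14) and at day 6 (log2 fold change -0.16 ± 0.05, adjusted p = 0.00284), and at day 2 by a small amount (log2 fold change -0.13 ± 0.04, adjusted p = 0.0127) that was not called without replicate 1 or 2 of BPK25 day 2 or replicate 3 of IAA day 2 (adjusted p up to 0.25). It was not called at day 4 (-0.02, adjusted p = 0.679). The 3 genes lower at day 6 came to 1 without replicate 3 of BPK25 day 6 or replicate 3 of IAA day 6.

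The mitochondrial genes were split in the same comparison, with 5 higher and 3 lower at day 0, 8 and 3 at day 2, 3 and 5 at day 4, and 4 and 2 at day 6. Of all genes, 24.8%, 29.2%, 27.2% and 27.7% were higher at these days. The shares lower were 23.1%, 28.4%, 27.1% and 28.8%. Most of these numbers out of 17 are near or below the shares over all genes. Cars2 (log2 fold change 0.77 ± 0.12, adjusted p = 2.05e-07) and Aars2 (log2 fold change 0.67 ± 0.07, adjusted p = 1.06e-11) were higher with BPK25 at day 2. Pars2 was lower at day 4 (log2 fold change -0.72 ± 0.20, adjusted p = 0.00215), but not without replicate 1 of BPK25 day 4 (adjusted p = 0.0514). Mars2 was lower with BPK25 at day 0 (log2 fold change -0.56 ± 0.11, adjusted p = 3.62e-05) and Fars2 higher (log2 fold change 0.49 ± 0.11, adjusted p = 0.000396). At day 6 Sars2 (log2 fold change 0.51 ± 0.10, adjusted p = 5.09e-05) and Fars2 (log2 fold change 0.45 ± 0.12, adjusted p = 0.00158) were higher and Vars2 lower (log2 fold change -0.36 ± 0.08, adjusted p = 0.000282). Counts of this class were small and moved with single libraries. The 5 higher at day 0 came to 3 without replicate 1 of IAA day 0, the 3 lower at day 2 to 1 without replicate 3 of BPK25 day 2, the 2 lower at day 6 to 1 without replicate 3 of BPK25 day 6, and the 3 higher at day 4 to 1 or 0 without any library other than replicate 3 of IAA day 4. The direction of Vars2 at day 6 was opposite to that of most cytosolic genes.

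Whether an effect of treatment changed between days was tested for each gene over all 4 days together. For BPK25 it did for 16 of 20 cytosolic and 8 of 17 mitochondrial genes, against 47.1% of all genes. The mitochondrial count was 4 with DESeq2 or with low counts kept, and 5 without replicate 3 of BPK25 day 6 or replicate 1 of DMSO day 6. The cytosolic genes with no call were Iars, Farsb, Rars and Nars. For IAA the effect changed in 20 of 20 cytosolic and 8 of 17 mitochondrial genes, against 70.1% of all genes. Aars under BPK25 had log2 fold changes of 0.08, 0.16, 0.75 and 0.25 at days 0, 2, 4 and 6 (adjusted p = 1.92e-16 for the difference between days), so its increase was concentrated at day 4. Cars under IAA had -0.13, -0.94, -0.44 and -0.23 (adjusted p = 9.76e-14), with its deepest point at day 2.

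Genes for the same amino acid in the 2 compartments did not always move together. There are 17 pairs of a cytosolic and a mitochondrial gene, Farsa and Farsb each being paired with Fars2 and Eprs with Ears2 only. In DMSO at day 6, 11 pairs were lower in both members and none moved in opposite directions. IAA at day 2 had 10 pairs lower in both, 1 pair with the cytosolic gene higher and the mitochondrial gene lower, and 2 pairs the other way. These opposite pairs were Farsa with Fars2, and Lars with Lars2 and Mars with Mars2. The calls of Farsa and Mars2 there were lost with DESeq2. BPK25 at day 4 had 2 pairs lower in both, among them Farsa with Fars2, and 2 in which the cytosolic gene was higher and the mitochondrial gene lower (Iars with Iars2, Nars with Nars2). The call of Nars2 was lost with DESeq2, with no filter on low counts and with only the libraries compared. Neither Nars nor Nars2 was called without replicate 1 of BPK25 day 4. The pair counts have no share over all genes beside them and were not tested. Mars and Mars2 had opposite signs with IAA at every day, a pair noticed after the values were seen. Mars had log2 fold changes of -0.48, -0.62, -0.25 and -0.19 at days 0, 2, 4 and 6, and Mars2 had 0.32, 0.31, 0.29 and 0.46. At day 6 Mars2 had 10.9, 10.3 and 12.3 CPM with IAA and 7.77, 7.92 and 8.84 CPM with DMSO (log2 fold change 0.46 ± 0.11, adjusted p = 0.000523). The calls of Mars2 at days 0, 2 and 4 were weak. They were lost with DESeq2 at all 3 days, with adjusted p-values of 0.0564, 0.069 and 0.0732, and at each of these days without single libraries. At day 0 Mars2 was not called without replicate 2 or 3 of DMSO day 0 or replicate 1 or 3 of IAA day 0 (adjusted p up to 0.0829). At day 2 it was not called without replicate 1 or 2 of DMSO day 2 or replicate 2 of IAA day 2 (adjusted p up to 0.241), and at day 4 not without replicate 2 of DMSO day 4 or replicate 1 or 3 of IAA day 4 (adjusted p up to 0.158).

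Lars2 had the widest range of the family, 5.09-fold between its highest and lowest group, against 3.23-fold for Cars, the widest cytosolic gene, and 1.22-fold for Hars2, the narrowest mitochondrial gene. It had 624, 626 and 577 CPM with IAA at day 2 and 201, 183 and 192 CPM with DMSO (log2 fold change 1.66 ± 0.06, adjusted p = 2.53e-29), but 132, 132 and 131 CPM against 238, 221 and 220 CPM at day 4 (log2 fold change -0.78 ± 0.06, adjusted p = 5.89e-16). The difference thus changed sign between these days. Gm42418, a noncoding gene model whose counts are often read as a measure of ribosomal RNA in a library, changed in the same direction at these days. Its log2 fold change with IAA was 1.55 ± 0.04 at day 2 and -0.92 ± 0.04 at day 4, and with BPK25 0.87 ± 0.04 at day 2 and -0.72 ± 0.04 at day 4, where Lars2 had 0.62 and -0.70. Both genes also changed in the same direction with IAA at day 0 (0.25 for Lars2 and 0.53 for Gm42418). In DMSO both were higher at day 4 than at day 0, and both lower at day 6 (-0.60 and -0.26). BPK25 against IAA had -0.53 and -0.44 at day 0, and -1.04 and -0.68 at day 2. The genes parted in some other comparisons. With BPK25 at day 0 Gm42418 was not called (0.09 ± 0.04, adjusted p = 0.189) while Lars2 had -0.28. At day 6 Gm42418 was lower with BPK25 (-0.18 ± 0.04, adjusted p = 0.00453) and with IAA (-0.18 ± 0.04, adjusted p = 0.000164), where Lars2 was not called and had -0.05 (adjusted p = 0.709) and 0.05 (adjusted p = 0.478). Across the 36 libraries Lars2 stood at 46.0 to 66.0 counts per 1000 counts of Gm42418. This ratio varied 1.44-fold between its highest and lowest library, and the Lars2 level 5.73-fold. The part of ribosomal RNA in the Lars2 counts was not tested. Without Lars2 the number of mitochondrial genes lower with IAA stayed at 12 at day 2 and came to 4 at day 4.

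**Figure D4:**
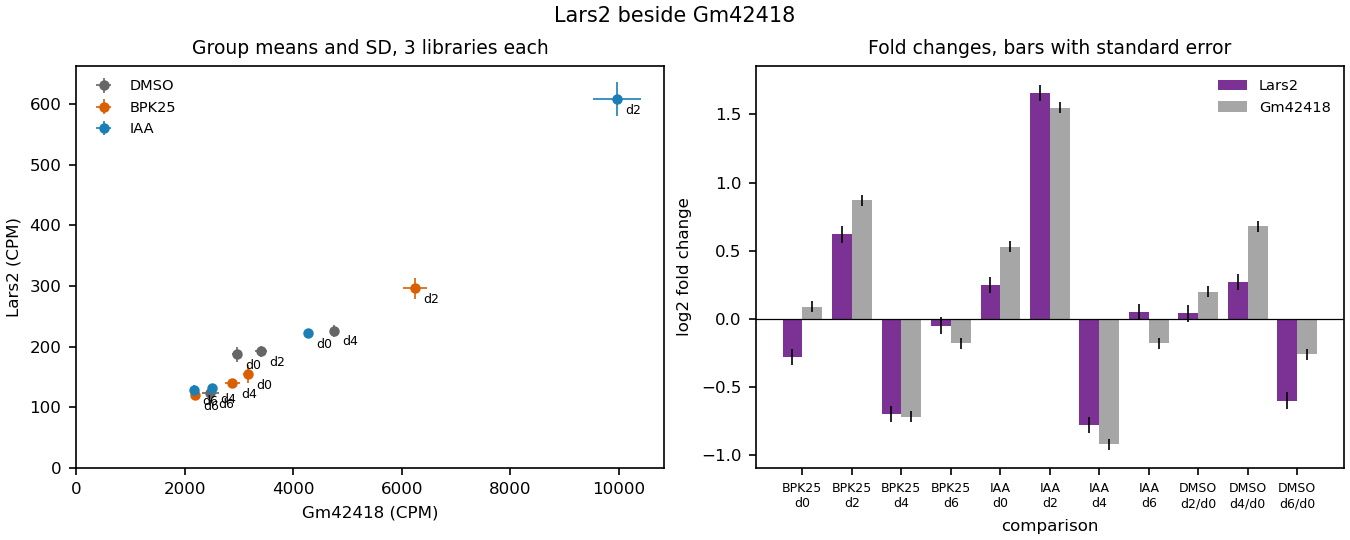
Left, mean CPM of Lars2 (y axis) against that of Gm42418 (x axis) in the 12 groups, with bars of 1 SD over 3 libraries. Right, log2 fold changes of both genes, with bars of 1 SE. Those of BPK25 and IAA are against DMSO of the same day. Those of later DMSO days are against the earliest DMSO day. IAA at day 2 is highest for both genes, and both change sign between days 2 and 4 under either treatment.

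The other genes of the ATF4 pathway were described from a list of 27 that holds no synthetase. With BPK25, 12, 17, 20 and 11 of 27 were higher at days 0, 2, 4 and 6 and 0, 0, 2 and 0 lower. Of all genes, 3.32%, 6.40%, 26.2% and 4.01% were higher at these days and 4.58%, 7.12%, 26.8% and 3.08% lower. The medians over the 27 were 0.22, 0.25, 0.53 and 0.19. At day 4 the largest changes were in Atf3 (2.02), a stress-induced transcription factor, Slc7a11 (1.68), the cystine transporter, Trib3 (1.27) and Ddit3 (1.26), and Atf4 itself had a log2 fold change of 0.70 with an adjusted p of 1.6e-17. With IAA, 19, 18, 16 and 16 were lower at the 4 days and 3, 3, 3 and 4 higher, with medians of -0.37, -0.48, -0.39 and -0.46. Of all genes, 23.2%, 27.9%, 25.9% and 30.0% were lower with IAA and 21.3%, 27.5%, 25.9% and 30.6% higher. At day 2 the largest changes were in Nupr1 (-2.06), Cth (-1.86), an enzyme of cysteine synthesis, Pck2 (-1.80) and Trib3 (-1.38), and Atf4 had -0.58 with an adjusted p of 3.71e-15. In DMSO at day 6, 22 of 27 were lower than at day 0 and 2 higher, with a median of -0.91. There 29.5% of all genes were lower and 33.2% higher.

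Other genes that handle transfer RNA and translation were summarised by list. Of all genes, 26.2% were higher and 26.8% lower with BPK25 at day 4. With IAA 21.3% were higher and 23.2% lower at day 0, and 27.5% and 27.9% at day 2. In DMSO at day 6, 33.2% were higher and 29.5% lower. Some counts below are near these shares, such as 2 of 8 scaffold and partner genes lower with IAA at day 2. Of 9 mitochondrial translation factors, 5 were lower and 0 higher with BPK25 at day 4, 7 lower and 2 higher with IAA at day 2, and 7 lower and 1 higher in DMSO at day 6, with medians of -0.25, -0.40 and -0.37. Mtrf1, a mitochondrial release factor, had -1.13, -1.01 and -0.79 in these comparisons, and Tufm, the mitochondrial elongation factor, had -0.29 and -0.61 in the first pair. Of 11 genes that process or complete charging of mitochondrial transfer RNA, 5 were lower and 0 higher with BPK25 at day 4, 5 lower and 1 higher with IAA at day 2, and 5 lower and 1 higher in DMSO at day 6. Of 8 scaffold and partner genes of the cytosolic enzymes, 0 were lower and 1 higher with BPK25 at day 4 (Sepsecs, 0.27), 2 lower and 0 higher with IAA at day 2 (Eef1e1, -0.52, and Xpot, -0.38), and 5 lower and 0 higher in DMSO at day 6. Of 9 cytosolic elongation and termination factors, 8 were lower in DMSO at day 6 and 0 higher, led by Eef1b2 (-0.73) and Eef1g (-0.66), and with BPK25 at day 4, 3 were higher and 4 lower. Of 12 growth genes linked to MYC, 11 were lower and 1 higher in DMSO at day 6, 7 higher and 2 lower with IAA at day 0, and 9 lower and 1 higher with IAA at day 2. Of 10 genes for eIF2alpha kinases and their partners, 5 were higher and 4 lower with BPK25 at day 4, and 2 higher and 5 lower with IAA at day 2.

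The 8 cytosolic synthetases that assemble in the multi-synthetase complex (Dars, Eprs, Iars, Kars, Lars, Mars, Qars and Rars) and the 12 outside it were both mostly lower with time in DMSO, with 8 of 8 and 11 of 12 lower at day 6 (29.5% of all genes were lower) and medians of -0.56 and -0.72. With BPK25 at day 2, 0 of the 8 complex genes were higher and 2 lower, and 8 of the 12 others were higher and 0 lower, against 6.40% of all genes higher and 7.12% lower. At an unadjusted p under 0.05, 1 complex gene was higher there and 0 of the others lower, DESeq2 called 0 of either, and Lars, a complex gene, was called higher without replicate 2 of DMSO day 2. With IAA at day 2, 6 of 8 and 10 of 12 were lower and 1 in each group was higher, against 27.9% of all genes lower and 27.5% higher. The complex and the ATF4 list overlap in Eprs, Iars, Lars and Mars. No test compared the groups.

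Some members share exon sequence with other genes, and no source used here says whether counting used strand, so reads there cannot be assigned with certainty. The shared part of the exons is 24.2% in Iars2 (with Rab3gap2), 15.1% in Aars (with Exosc6 on the same strand), 10.7% in Fars2 (with Nrn1) and 9.5% in Farsb (with Sgpp2), and 8.5% or less in most other members. Hars and Hars2 lie on opposite strands with their 5′ ends overlapping. The start of each lies inside the other gene, the starts are 197 bases apart, and the genes share 195 exon bases. With BPK25 at day 4, where Hars was lower, Hars2 was not called in the fit of all groups (log2 fold change -0.16 ± 0.07, adjusted p = 0.0548), but it was called with only the libraries compared and without replicate 2 of DMSO day 4. Mars shares 68 exon bases with Ddit3 on the opposite strand, a gene of the list of 27 other ATF4 pathway genes.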

How the data were processed

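RNA from 36 mouse embryonic stem cell libraries was prepared with a SMARTer mRNA kit, per the labels' protocols. The submitters' processing notes name the build mm10 and the tools featureCounts 2.0.1, HISAT2 2.1.0, FastQC 0.11.7 and DESeq2. No source used here gives the strand setting or annotation. The authors deposited unnormalized gene counts as 1 table, and 55154 (99.7%) of its 55335 genes matched GENCODE M21, which gave positions and exon lengths.

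The test was edgeR 4.0.16 (R 4.3.3) on those counts, with TMM scaling, filterByExpr on 12 groups (minimum count 10, minimum total 15, leaving 17394 genes), 1 quasi-likelihood fit of 12 groups, and two-sided tests with Benjamini-Hochberg adjustment over all genes tested, called at an adjusted p under 0.05. The SE is the log2 fold change divided by the root of the F statistic. CPM used TMM-scaled totals. The script was tested on simulated counts. The common biological coefficient of variation was 3.86%. No 2 libraries of a group agreed within sampling noise.

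Members and lists were chosen with earlier results of these data known. Genes given fold changes with errors were, per comparison, up to 4 cytosolic and 3 mitochondrial members with the largest change among those called, with Gars and Kars always. Other values, such as those of Wars, Tars, Farsa, Hars2 and Mars2, were chosen after they were seen. Alternatives were DESeq2 1.42.0, RLE size factors, a filter of 1 CPM in 3 libraries or none, a fit of the compared libraries alone, a replicate block, and leaving out each library. Class sums without Lars2 were chosen after seeing the data. A member gene's own values and a promoter sequence are not reported here, though the gene is in the counts and sums.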

Additional observations from a re-analysis of the deposited data

Results flagged for a closer look

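The effect of a treatment differed between days for the following genes by edgeR's joint test over 4 days, adjusted over all genes. The genes are from the 3 cytosolic and 2 mitochondrial members with the smallest p per treatment, and log2 fold changes against DMSO are given for days 0, 2, 4 and 6 in that order. With BPK25, Aars had 0.08, 0.16, 0.75 and 0.25 (adjusted p = 1.92e-16). Vars had 0.06, 0.08, -0.53 and 0.05 (adjusted p = 2.08e-12), and Hars 0.02, 0.02, -0.52 and 0.04 (adjusted p = 1.26e-11). These 3 genes stood apart at day 4. Lars2 had -0.28, 0.62, -0.70 and -0.05 (adjusted p = 1.87e-17).

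With IAA, Cars had -0.13, -0.94, -0.44 and -0.23 (adjusted p = 9.76e-14). Vars had -0.11, -0.81, -0.29 and -0.31 (adjusted p = 1.07e-13), and Eprs 0.03, -0.49, -0.33 and -0.22 (adjusted p = 4.52e-11). All 3 were lowest relative to DMSO at day 2. Lars2 had 0.25, 1.66, -0.78 and 0.05 (adjusted p = 2.26e-28), and Aars2 0.00, -0.53, 0.05 and 0.05 (adjusted p = 3.31e-06).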

How the results depend on the processing

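The number of the 37 genes called was within 1.5 times its main value under every alternative and every left-out library in 13 of the 15 comparisons between groups. For BPK25 against DMSO at day 6 it was 7, 11 with DESeq2, and 4 to 7 with a library left out, 4 being the value without DMSO day 6 replicate 1, where Cars, Kars and Sars were lost. In DMSO at day 2 against day 0 it was 1, 0 with no filter on low counts, 0 with only the libraries compared, and 0 to 1 with a library left out. No sign turned in the 117 gene and comparison pairs followed, and 12 of the 109 called pairs lost their call in at least 1 setting. Same-numbered libraries did not deviate together (r from -0.028 to 0.047 over 45 pairs, 15 of them best with their own number), and a replicate block changed no call of the 117 pairs. With a library left out, its group keeps 2, and the fit takes their spread to be that of the other groups. Depth limits the mitochondrial genes most, with 25 counts in the lowest library of Pars2.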
